A study of Solanum pimpinellifolium and Solanum chilense with 12 samples.

Results

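The genes described here rose after self-pollination in styles of a self-incompatible tomato relative. Their mean level changed little in styles of a self-compatible one. They were chosen by the deposited RPKM values (reads on a gene scaled to its length in kilobases and to the reads of the library). The response D of a species was taken as log2((mean pollinated + 0.5)/(mean unpollinated + 0.5)). A gene was a member if D was at least 1 in the self-incompatible species with its lowest pollinated library above its highest unpollinated one, if D lay between -0.5 and 0.5 in the self-compatible species, and if its mean was at least 1 RPKM both in the unpollinated self-incompatible libraries and over the 6 self-compatible libraries. Of 34,718 genes with values, 277 met the rule.

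RNA was sequenced from whole styles with their stigmas, taken from greenhouse plants. Self-incompatible (SI) S. chilense LA0130 was sampled 24 h after self-pollination (SIP) and unpollinated (SIUP), and self-compatible (SC) S. pimpinellifolium LA1585 likewise (SCP and SCUP). Each of the 4 groups had 3 libraries, which the study describes as biological replicates. The sources do not say whether these came from separate plants. Species and compatibility cannot be told apart, since each kind of pollination was studied in 1 species and 1 accession.

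In the self-incompatibility of tomato relatives, ribonucleases made by the style halt the growth of pollen tubes that carry a matching S allele, while in compatible pollinations the tubes grow through the style to the ovary. A pollen tube elongates at its tip, and its wall is rich in pectin, which pectinesterases, pectate lyases and polygalacturonases modify or cut. RNA extracted from a pollinated style is a mixture of that of the pistil and that of any pollen and pollen tubes in it. In such bulk samples, fewer cells of a type and less RNA per cell cannot be told apart.

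Read numbers were worked back from the RPKM values, and the reads assigned to genes came to 10,174,283 to 11,330,121 per SIP library, 11,650,217 to 11,933,635 per SIUP library, 12,926,250 to 13,773,941 per SCP library and 13,397,026 to 14,499,207 per SCUP library. The lowest read number of a member in any of the 12 libraries had a median of 114 over the 277 members, and 23 members had under 10 reads in some library. The treatment of reads with several matching genes is not given in the sources used here, and near-identical genes may therefore share reads. Both species were read against the tomato genome, and a smaller part of the SI reads mapped to it, so levels of SI and SC styles set side by side below carry that difference.

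Of the 34,718 genes, 1185 had an SI response of at least 1, and 913 of these also had every SIP library above every SIUP library, a separation found in 10.6% of the 16,905 genes that passed both RPKM minimums. The RPKM minimum in SIUP left 629 genes and that in SC left 601. Of these 601, 306 rose by more than 0.5 in SC as well, 18 fell by more than 0.5, and the 277 members lay between. Among the members the SI response had a median of 1.39 on the log2 scale and ranged from 1.004 to 2.68. It was at least 2 in 3 members and under 1.1 in 33. The SC response had a median of -0.02, and it lay within 0.1 of 0 in 150 members. The members thus formed a compact group near an SC response of 0, which the plot of the responses of both species shows. These values chose the members and are a description only.

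**Figure D1:**
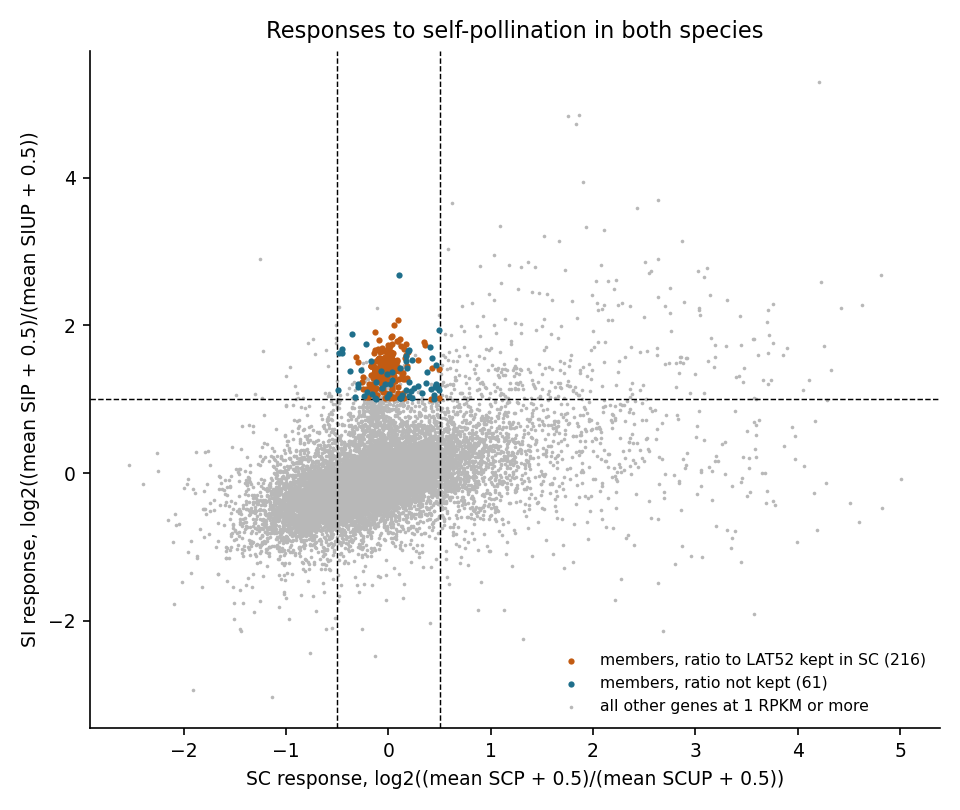
SI response against SC response of each gene with a mean of at least 1 RPKM in SIUP and over the SC libraries, both as log2 ratios of group means with 0.5 added. Dashed lines mark the limits of the rule at 1 in SI and at -0.5 and 0.5 in SC. The 277 members lie above the horizontal line, most of them within 0.1 of an SC response of 0, in orange where their ratio to LAT52 was kept in the SC libraries and in blue where it was not.

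At the edges of the rule the values were continuous. Solyc01g094560, annotated as a structural constituent of the ribosome, was the member with the lowest SI response, 1.004, while Solyc04g074080, with 0.993, was just outside. On the upper SC limit Solyc03g116500, with an SC response of 0.496, was inside and Solyc08g076930, with 0.504, was outside. On the lower limit Solyc04g053010 was inside at -0.495 and Solyc03g093120 outside at -0.510.

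By limma, on log2(RPKM + 0.5) with Benjamini-Hochberg adjustment and a threshold of 0.05, 48 of the 277 members were called higher in SIP than in SIUP, where 2.50% of the 18,334 genes tested were called higher. In SC none of the 276 members tested was called by limma, where 6.89% of 18,913 genes were. Voom on the recovered reads called no member in SC either, with no share over all genes given here. By limma none of the 276 had an unadjusted p under 0.05, where 27.7% of the 18,913 genes did. The SI response minus the SC response was called for 7 members, all higher in SI, against 0.252% of 20,277 genes. The rule used each of these contrasts, and the counts are not read as evidence about the members. The counts also rest on single libraries. Without SIUP1, 255 members were called in SI, where 12.7% of 18,141 genes were, while 8 were called without SIP1, 24 without SIP2, 21 without SIP3, 17 without SIUP2 and 12 without SIUP3, and 13 with a replicate block. For the SI minus SC difference the 7 became 38 without SIUP1 and 13 without SCP1. They became 0 without SCUP3, 1 without SIUP3, 2 without SIP1, SIP3 or SCUP1, 3 without SIUP2 or SCP2 and 4 without SIP2, and 3 by voom or with the block. Of these alternative fits, the share of all genes called is given only for SI without SIUP1. Whether the other counts moved apart from those of all genes was not tested.

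A gene taken as a marker of pollen was itself a member. Solyc10g007270 is taken here to be LAT52. The files and the paper do not give that name, and the ID could not be checked against an annotation, so every statement on LAT52 holds for the gene with this ID and its identity as a pollen marker rests on general knowledge. LAT52 encodes a small cysteine-rich protein made late in pollen development and is widely used as a marker of tomato pollen. It had 591, 1086 and 606 RPKM in SIP1 to SIP3, against 488, 160 and 161 RPKM in SIUP1 to SIUP3. In SC it had 1860, 2061 and 2213 RPKM in SCP1 to SCP3, against 1275, 3274 and 1797 RPKM in SCUP1 to SCUP3. LAT52 was thus abundant in every library, those labelled unpollinated included. SCUP2, an unpollinated library, held the highest level of all 12, and each SCUP library was above each SI library.

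LAT52 averaged 761 ± 282 RPKM in SIP and 270 ± 190 RPKM in SIUP, and 2044 ± 177 RPKM in SCP and 2115 ± 1037 RPKM in SCUP (SD, n = 3 each). Its response was 1.496 in SI and -0.05 in SC. Of the SIUP libraries, SIUP1 had 3.06 times the level of SIUP2 and 3.04 times that of SIUP3, and the lowest SIP library was only 1.21 times SIUP1. Of the SCUP libraries, SCUP2 had 2.57 times the level of SCUP1. The mean of SCUP therefore covered libraries on both sides of the SCP libraries.

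Most members moved with LAT52 from library to library. The ratio of each gene to LAT52, both as RPKM + 0.5, was followed over the 6 SC libraries, a measure chosen after values were seen. It stayed within a 2-fold range in 216 of the 277 members, LAT52 itself included, and in 7.01% of the 16,905 genes with at least 1 RPKM in SIUP and in SC. A gene at a constant level would have a range of 2.57-fold, since that is the range of LAT52 itself. The median range was 1.17-fold in the 216 members, against 3.31-fold over the 16,905 genes. Within 1.5-fold there were 191 members, and within 3-fold 241, where 3.62% and 36.4% of the 16,905 genes were. Part of this likeness is set by the rule, since LAT52 and the members all have an SC response near 0.

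In the SI libraries, which did not enter that choice, the ratio to LAT52 stayed within 2-fold in 175 of the 216 members and in 5 of the other 61, where 2.20% of the 16,905 genes did. The median range over the 6 SI libraries was 1.41-fold in the 216 members and 3.31-fold in the 61, against 8.16-fold over all 16,905. The rule sets part of this too, since it asks for an SI response of at least 1 and LAT52 has 1.496. The response of 162 of the 216 members lay within 0.25 of that of LAT52. The other 41 of the 216 kept the ratio in SC but not in SI.

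The order of libraries within a group was not used by the rule, apart from the separation of SIP from SIUP. SCUP2 was above SCUP3 and SCUP3 above SCUP1 in 229 of the 277 members, where 14.8% of the 16,905 genes had this order. The difference between SCUP2 and SCUP1, both unpollinated, had a median of 1.29 on the log2 scale over the members, against -0.20 over the 16,905 genes. The split into 216 and 61 used these SC libraries, and a ratio within 2-fold of LAT52 forces SCUP2 above SCUP1, so the values of the 2 sets, with medians of 1.33 and 0.05, only describe the split. SIUP1 was the highest of the SIUP libraries in 210 of the 216 and 34 of the 61, where 33.1% of the 16,905 were. SIP2 was the highest of the SIP libraries in 203 of the 216 and 19 of the 61, where 30.5% were. In LAT52, too, SIUP1 was the highest SIUP library and SIP2 the highest SIP library. These shares are descriptions over genes of the same libraries, which are not independent of one another.

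**Figure D2:**
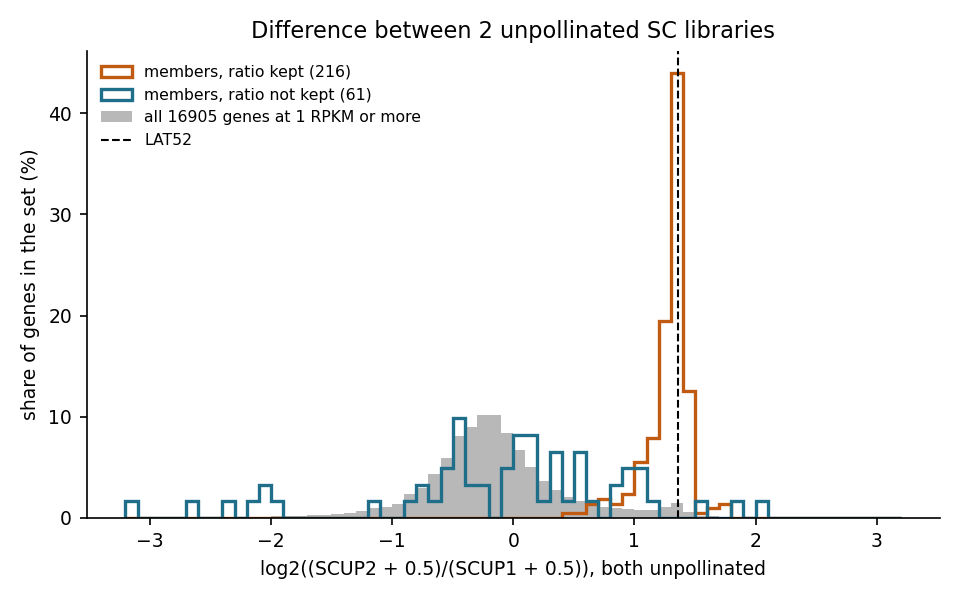
Share of genes by the log2 difference between SCUP2 and SCUP1, 2 libraries of unpollinated SC styles, for members whose ratio to LAT52 was kept in SC (orange), the other members (blue) and all 16,905 genes with at least 1 RPKM (grey). The colours were set by the ratio to LAT52 in libraries that include these 2, which places the orange genes near LAT52 (dashed line), with a median of 1.33. Over all 277 members the median was 1.29, against -0.20 for all genes.

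Summed over the 216 members, the level was 31,295, 50,349 and 29,190 RPKM in SIP1 to SIP3, against 23,865, 7616 and 8370 RPKM in SIUP1 to SIUP3. In SC it was 79,563, 87,152 and 91,679 RPKM in SCP1 to SCP3, against 53,244, 134,931 and 77,095 RPKM in SCUP1 to SCUP3. As a share of the reads on genes, the 216 took 2.62% to 4.51% in SIP, 0.70% to 2.18% in SIUP, 7.20% to 8.32% in SCP and 4.83% to 12.19% in SCUP. SIUP1 was nearer to SIP1 and SIP3 than to SIUP2 and SIUP3, and SCUP2 was above all SCP libraries. Summed over the 61, the level was 6098 to 6473 RPKM in SIP, 2586 to 2786 RPKM in SIUP, 7685 to 10,176 RPKM in SCP and 7551 to 8602 RPKM in SCUP. In that sum SIUP1 was near SIUP2 and SIUP3. The part of pollen RNA in the result was not tested, and how LAT52 RNA came to be in the libraries labelled unpollinated is not given in the sources used here.

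**Figure D3:**
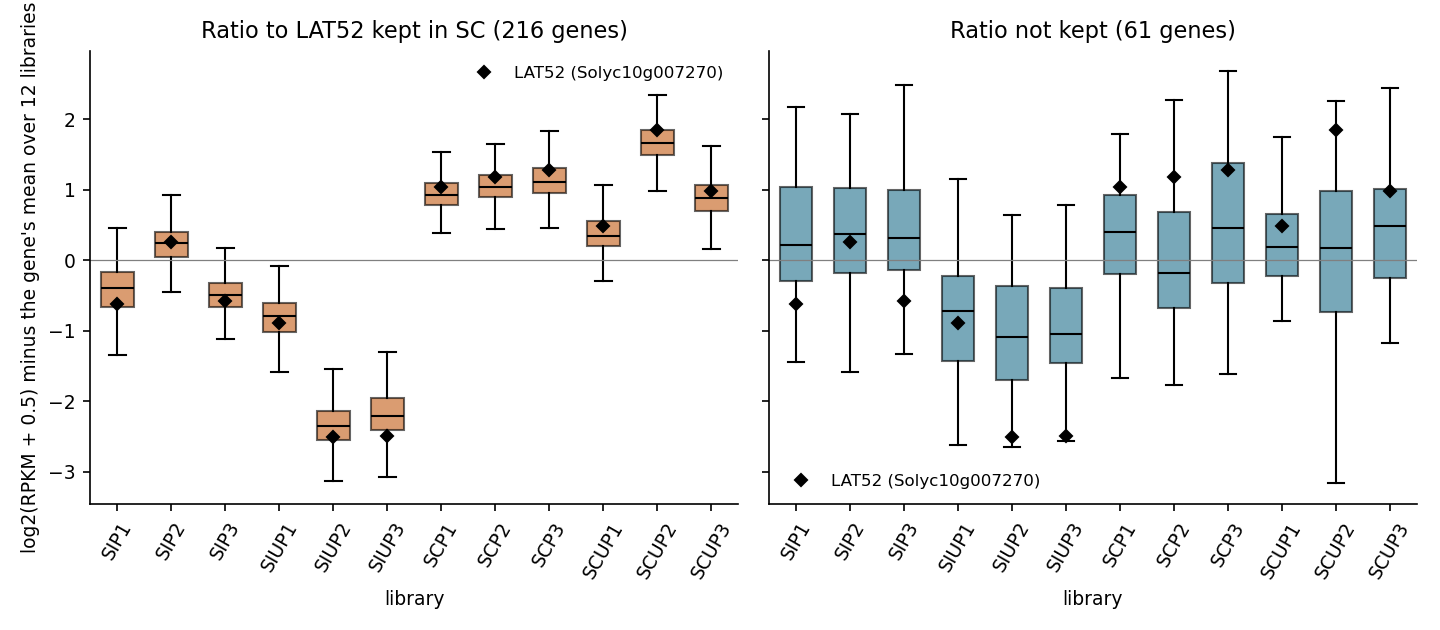
Level of each member in each of the 12 libraries, as log2(RPKM + 0.5) minus the mean of the gene over the libraries, for the 216 members that kept their ratio to LAT52 in SC (left) and the other 61 (right). Boxes give the quartiles with the median as a line, whiskers reach up to 1.5 times the box height and single genes beyond are not drawn, and diamonds are LAT52. On the left the boxes follow LAT52 in all libraries, with SIUP1 near SIP1 and SIP3 and with SCUP2 highest, while on the right the 3 SIUP medians lie below all the others.

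The separation of SIP from SIUP was narrow for most members. The lowest SIP library was under 1.5 times the highest SIUP library in 214 of the 277 members, 187 of the 216 and 27 of the 61. The median of that ratio was 1.18 in the 216 and 1.58 in the 61. The smallest was 1.0007.

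The members were mostly lower in SI than in SC styles. SIP, SIUP and the SC libraries all entered the rule, so the comparisons with all genes here are descriptions only. The mean SIUP level was below the mean SCUP level in 260 of the 277 members, and in 40.9% of the 16,905 genes. The median of log2(SIUP/SCUP), of means with 0.5 added, was -2.56 over the members and 0.16 over the 16,905 genes, and that of log2(SIP/SCP) was -1.11 over the members and 0.14 over the 16,905. In 137 members every SI library was below every SC library, where 12.3% of the 16,905 genes were. In 4 members, all among the 61, every SI library was above every SC library, where 3330 of the 16,905 genes were. In the 61 the median of log2(SIP/SCP) was 0.11. The mean SIP level was below the mean SCP level in 30 of them, and in 42.7% of the 16,905 genes.

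Members with an annotated role included enzymes that act on pectin. Roles come from gene ontology terms given for genes that the study selected, a list held here only in part, and 78 members have such terms, 46 of the 216 and 32 of the 61. Of these 78, 8 carry a term for pectin breakdown, and all 8 kept their ratio to LAT52 in SC, where 46 of the 78 did. Of the 860 genes with terms in the list, 13 carry a pectin term. Solyc03g058910, a pectate lyase, which cuts the pectin backbone, was the most abundant of them. It had 1450, 2002 and 1211 RPKM in SIP, against 1022, 296 and 315 RPKM in SIUP. In SC it had 2953, 3115 and 3251 RPKM in SCP, against 1869, 4708 and 2733 RPKM in SCUP. The SIUP1 value lay just below the lowest SIP value, and the SCUP2 value above all SCP values.

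A further pectate lyase, Solyc02g087670, had 315 to 551 RPKM in SIP and 75.8 to 225 RPKM in SIUP, with an SI response of 1.64. It had 1087 to 1247 RPKM in SCP and 644 to 1725 RPKM in SCUP. The pectinesterases, which remove methyl groups from pectin and whose terms here include an inhibitor activity, were led by Solyc05g054360 with an SI response of 1.85. This gene had 128, 197 and 117 RPKM in SIP, against 69.5, 22.8 and 29.4 RPKM in SIUP. Solyc01g066360, with the same terms, followed at 1.75, with 167 to 296 RPKM in SIP and 36.3 to 112 RPKM in SIUP. Solyc10g081670, Solyc01g059940 and Solyc05g052110 had SI responses of 1.57, 1.48 and 1.48, and Solyc05g052110 is also annotated to pollen tube growth. Solyc06g009200, annotated as a polygalacturonase, had 41.3 to 62.8 RPKM in SIP and 10.8 to 33.2 RPKM in SIUP, an SI response of 1.40. Its ratio to LAT52 ranged over 1.06-fold in SC and 1.26-fold in SI.

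Of the 78, 6 carry a term with pollen in its name, where 29 of the 860 genes with terms do. Of these 6, 5 kept their ratio to LAT52 in SC. Solyc03g093230, annotated as a water channel of the pollen tube, had 4.57, 6.79 and 3.74 RPKM in SIP, against 2.48, 0.545 and 0.671 RPKM in SIUP, and 8.05 to 9.92 RPKM in SCP, against 6.32 to 9.81 RPKM in SCUP. Solyc02g064680, annotated as a calcium-transporting ATPase and to pollen development, had an SI response of 1.68, with 69.0 to 114 RPKM in SIP and 21.1 to 39.7 RPKM in SIUP. Solyc01g097960 had one of 1.06, with 2.80 to 4.22 RPKM in SIP and 1.02 to 2.18 RPKM in SIUP. Solyc06g066800, annotated to pollen germination and pollen tube growth, was the 1 of the 6 that did not keep the ratio. In SC it ranged from 20.7 to 104 RPKM in SCP and from 21.2 to 87.0 RPKM in SCUP. Solyc02g064980, a protein kinase annotated to pollen sperm cell differentiation, kept the ratio in SC within 2-fold but not in SI, where it ranged over 4.18-fold.

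Of the 10 members with the highest mean in SIP, 8 kept the ratio to LAT52 in SC, about the share over all members (78.0%), and 7 of these 8 have no role given in the sources used here, the 8th being the pectate lyase Solyc03g058910. Solyc03g078260 led with 3390, 6044 and 3053 RPKM in SIP, against 2530, 741 and 951 RPKM in SIUP. In SC it reached 7999, 8712 and 8810 RPKM in SCP, against 5201, 13,325 and 7730 RPKM in SCUP. Its level in SIUP1 was close to that in SIP1 and SIP3. Solyc12g062920 had 1327 to 2399 RPKM in SIP and 338 to 1283 RPKM in SIUP, and Solyc05g042170 had 1066 to 1989 RPKM in SIP and 309 to 880 RPKM in SIUP. Solyc06g008670, Solyc06g054270, Solyc12g014240 and Solyc12g014580 had means of 852 to 986 RPKM in SIP and SI responses of 1.44 to 1.55. The other 2 of the 10 did not keep the ratio, Solyc03g096290 with no role given and Solyc03g120380, the Aux/IAA gene IAA19.

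Some of these genes are neighbours by the numbers in their IDs. In 8 places 2 or more members follow each other in the gene list, 18 members in all. All 18 kept their ratio to LAT52, where 78.0% of all members did. How often other genes at this level follow each other was not counted. The longest run was Solyc06g008650, Solyc06g008660, Solyc06g008670 and Solyc06g008680 on chromosome 6. In SIP1 to SIP3 Solyc06g008660 had 581, 797 and 488 RPKM, against 381, 113 and 135 RPKM in SIUP1 to SIUP3, and the SI responses of the 4 genes were 1.74, 1.57, 1.46 and 1.54. Solyc12g062910 and Solyc12g062920 on chromosome 12 had 1.73 and 1.43. By the chromosome number in the ID, the share of the 16,905 genes that were members ranged over the 12 numbered chromosomes from 0.717% on chromosome 7 to 2.95% on chromosome 12, and it was 3.31% (4 of 121 genes) for IDs with the number 0. The gene length implied by the RPKM steps had a median of 1026 bp in the members and 1240 bp in the 16,905 genes.

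Of the 10 members with the largest SI response, 7 kept the ratio in SC and most have no role given. Solyc12g042780 had 86.7, 125 and 120 RPKM in SIP, against 41.5, 19.4 and 16.6 RPKM in SIUP, a response of 2.08. Solyc08g062840, Solyc08g005040, Solyc12g033100 and Solyc10g085960, the last annotated to the extracellular region, had responses of 1.91, 1.85, 1.81 and 1.80. Solyc02g064980, the kinase named above, had 38.0, 43.8 and 48.3 RPKM in SIP, against 8.901, 10.002 and 12.259 RPKM in SIUP, a response of 2.01. In it SIUP1 was the lowest of its group, unlike in most of the 216. It had 34.2 to 57.3 RPKM in SCP and 34.4 to 47.2 RPKM in SCUP.

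The remaining 3 of these 10 were among the 61 that did not follow LAT52. Solyc02g083880, with no role given, had the largest response, 2.68. It had 36.5, 6.19 and 63.0 RPKM in SIP, against 5.66, 5.26 and 4.32 RPKM in SIUP, so that SIP2 was close to the SIUP libraries and the mean rests on SIP1 and SIP3. Solyc01g100240 is annotated as a calmodulin-binding transcription factor that regulates salicylic acid biosynthesis. It had 26.3, 17.4 and 22.6 RPKM in SIP, against 6.34, 4.91 and 4.91 RPKM in SIUP, a response of 1.94, and 3.97 to 8.98 RPKM in SCP, against 4.141 to 4.501 RPKM in SCUP. Solyc03g119250, which shares its term for the regulation of salicylic acid biosynthesis and is named after its values were seen, had 6.37, 3.63 and 5.81 RPKM in SIP, against 1.84, 1.37 and 1.35 RPKM in SIUP. In both genes the SIP libraries were at least 1.97 times the highest SIUP library. Solyc01g079270, with no role given, had 78.1, 59.5 and 85.0 RPKM in SIP, against 15.2, 26.6 and 17.2 RPKM in SIUP, while SCP at 4.95 to 8.66 RPKM overlapped SCUP at 5.64 to 10.8 RPKM.

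Most hormone genes that the paper names were not members, and most of those that were belonged to this smaller group. Of the 48 genes it names by ID, which the study chose on these libraries, 7 were members, where 277 of the 16,905 genes that passed both RPKM minimums were. The 7 were 4 of 21 for auxin, 1 of 7 for ethylene signalling, 1 of 10 for ethylene synthesis and 1 of 2 for jasmonic acid. Of the 48, limma called 26 higher and 1 lower in SIP than in SIUP, where 2.50% of all genes tested were called higher, and 15 higher and 0 lower in SCP than in SCUP, where 6.89% were called in either direction. Of the 7 members, 5 did not keep their ratio to LAT52 and 2 did, where 61 of all 277 members did not.

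Solyc12g009220, the jasmonate ZIM-domain repressor JAZ1, had 399, 436 and 488 RPKM in SIP, against 175, 127 and 147 RPKM in SIUP. In SC it had 554, 576 and 610 RPKM in SCP, against 366, 481 and 450 RPKM in SCUP. Its SI response was 1.56 and its SC response 0.42, and the groups did not overlap in either species, so it also stood higher in each SCP library than in each SCUP library. Solyc10g083970, a SAM synthase of the step before ACC in ethylene synthesis, had 278, 240 and 246 RPKM in SIP, against 126, 78.9 and 90.6 RPKM in SIUP. In SC it had 678, 313 and 401 RPKM in SCP, against 316, 336 and 420 RPKM in SCUP, where the groups overlapped. Solyc09g075440, annotated to ethylene binding and a phosphorelay sensor kinase and named after its values were seen, had 650, 551 and 462 RPKM in SIP, against 292, 255 and 273 RPKM in SIUP. It had 212 to 416 RPKM in SCP and 208 to 314 RPKM in SCUP.

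Among the auxin genes, the Aux/IAA genes encode repressors of auxin responses. IAA19 (Solyc03g120380) had 804, 950 and 831 RPKM in SIP, against 445, 305 and 348 RPKM in SIUP. In SC it had 712, 398 and 444 RPKM in SCP, against 579, 344 and 430 RPKM in SCUP, which overlapped. IAA22 (Solyc06g008580) had 74.5, 67.9 and 84.2 RPKM in SIP, against 44.0, 30.5 and 33.6 RPKM in SIUP, and was lower in every SC library, at 5.98 to 17.9 RPKM in SCP and 1.72 to 10.5 RPKM in SCUP. Solyc03g033590, a SAUR gene, of a family that responds quickly to auxin, had 14.4, 9.17 and 11.2 RPKM in SIP, against 7.46, 2.38 and 1.30 RPKM in SIUP. Solyc07g056460, annotated as a glutathione transferase and to auxin signalling, had 2.82 to 4.36 RPKM in SIP and 1.49 to 1.64 RPKM in SIUP.

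The 2 hormone genes that kept their ratio to LAT52 in SC were the SAUR gene Solyc12g009280 and the Skp1 gene Solyc01g111640, which encodes a subunit of ubiquitin ligases. Solyc12g009280 had 57.3, 61.5 and 46.7 RPKM in SIP, against 30.7, 8.66 and 12.3 RPKM in SIUP. It had 105.7, 100.7 and 109.2 RPKM in SCP, against 73.0, 165 and 87.7 RPKM in SCUP, with SCUP2 highest and SCUP1 lowest as in LAT52. Solyc01g111640 had 14.7, 18.5 and 13.0 RPKM in SIP, against 7.57, 4.98 and 5.99 RPKM in SIUP, and 37.5, 39.9 and 39.5 RPKM in SCP, against 28.8, 47.2 and 35.9 RPKM in SCUP. In SI its ratio to LAT52 ranged over 2.44-fold.

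**Figure D4:**
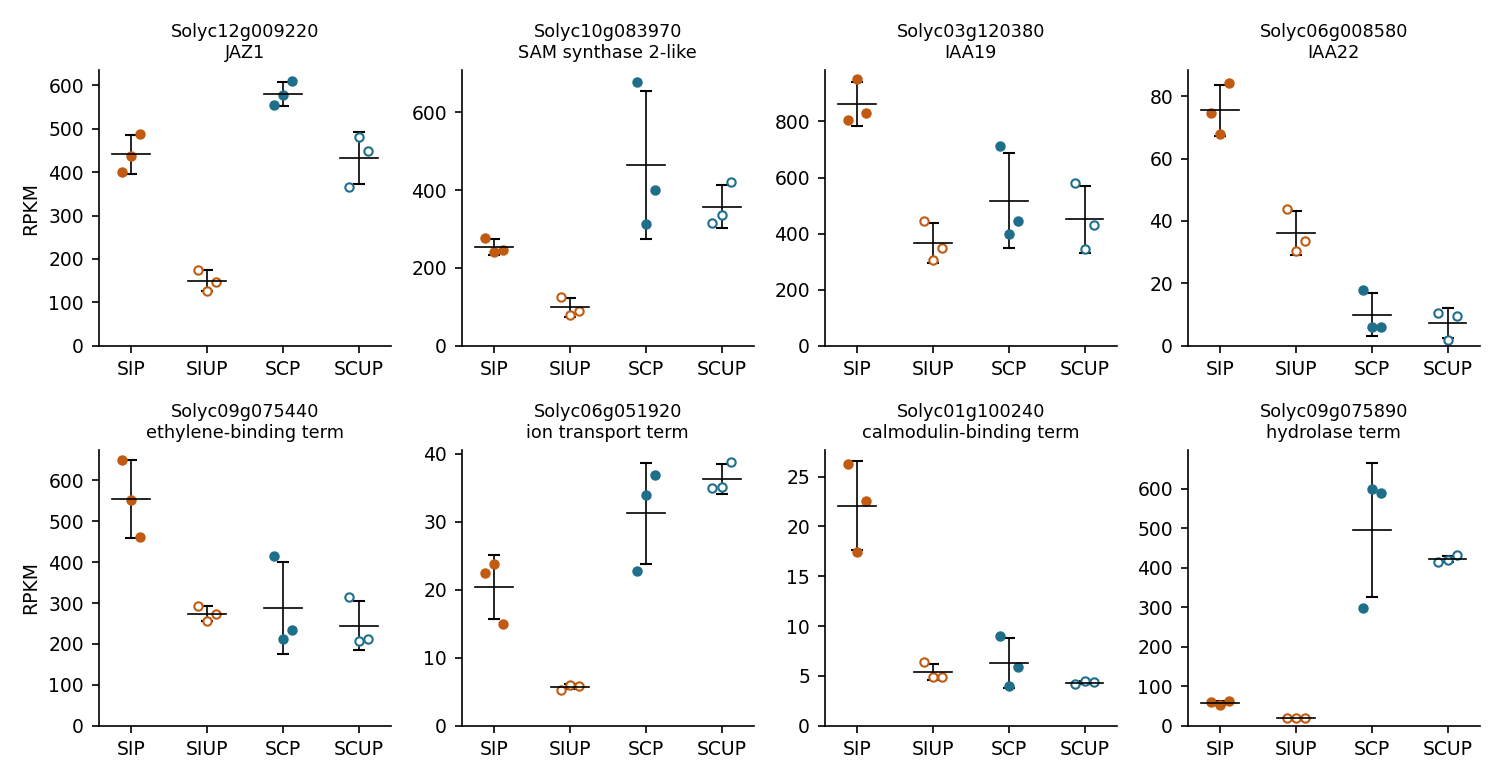
RPKM of 8 members that did not keep their ratio to LAT52, in the 3 libraries of each group (points), with the mean (line) and SD (bar), SI in orange and SC in blue, filled for pollinated and open for unpollinated styles. In each gene the SIP points lie above all SIUP points, and JAZ1 is the 1 gene of the 8 whose SCP points also lie above all SCUP points.

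Of the 61 members that did not follow LAT52, 32 were called higher in SIP than in SIUP by limma, against 16 of the 216, where 2.50% of all genes tested were. Without SIUP1 the counts were 47 of the 61 and 208 of the 216, so the order of the shares turned. In that fit 12.7% of 18,141 genes were called. The rule used this contrast, and the difference between the sets was not tested. Several have annotated roles in transport. Solyc06g051920, annotated to ion transport across membranes, is named after its values were seen. It had 22.5, 23.8 and 15.0 RPKM in SIP, against 5.31, 5.99 and 5.86 RPKM in SIUP, and 22.8 to 36.9 RPKM in SCP, against 34.9 to 38.9 RPKM in SCUP. Solyc03g120550, annotated to oligopeptide transport, had 185, 243 and 212 RPKM in SIP, against 69.5, 111 and 91.7 RPKM in SIUP. In both, SIUP1 was the lowest of its group. The transporters Solyc09g098600 and Solyc12g098450, the second annotated to magnesium, had SI responses of 1.78 and 1.39 and followed LAT52.

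Other annotated members of the 61 act in the cell wall and in signalling. Solyc03g093110, a xyloglucan endotransglucosylase, which cuts and rejoins wall polymers, had 5.24, 6.09 and 6.47 RPKM in SIP, against 2.27, 1.18 and 1.31 RPKM in SIUP, and more in SC, at 15.4 to 32.2 RPKM in SCP and 18.3 to 55.0 RPKM in SCUP. The protein kinases Solyc06g043250 and Solyc06g009540, in contrast, followed LAT52 and had SI responses of 1.55 and 1.41. Solyc09g075890, annotated only as a hydrolase and named after its values were seen, varied little within each SI group. It had 59.0, 53.2 and 61.8 RPKM in SIP, against 19.6, 19.2 and 20.4 RPKM in SIUP, and 299, 599 and 588 RPKM in SCP, against 416, 420 and 432 RPKM in SCUP. Its SC response of 0.23 thus covered 1 SCP library below and 2 above the SCUP libraries. The low members Solyc07g041230 and Solyc05g054160, with no role given, and the redox genes Solyc06g073080 and Solyc11g006540, which kept their ratio to LAT52 in SC, had means of 3.39 to 11.8 RPKM in SIP and SI responses of 1.13 to 1.68.

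The rule was also applied with 1 library left out, and the left-out library was then compared with the rest. The count of genes chosen was 243 to 375 without any library but SIUP1, and 617 without SIUP1. Between 212 and 271 of the 277 members were chosen again. Of the genes chosen without SIUP1, SIUP1 itself lay below all SIP libraries in 48.8%, where 23.6% of all genes at that level did. For SIUP2 and SIUP3 the shares were 95.1% and 99.2%, where 23.4% and 21.3% of all genes did. For SIP1 to SIP3, lying above all SIUP libraries, they were 76.0%, 91.2% and 79.4%, against 24.8%, 20.4% and 26.5%. For the 6 SC libraries the left-out value was within 1 (log2) of the mean of the other SC group in 84.9% to 97.9%, where 79.6% to 90.4% of all genes were. The other libraries of these comparisons had entered the choice, so the shares are descriptions.

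Of the 6 SC libraries, SCUP2 moved the median SC response of the members most when left out. Their median was -0.02 with all libraries and 0.38 without SCUP2, and it was 0.40 in the 216 and 0.00 in the 61. Without SCUP1 it was -0.27 over the members. Without SIUP1 the median SI response was 2.10 in the 216 and 1.33 in the 61, against 1.40 and 1.20 with all libraries.

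**Figure D5:**
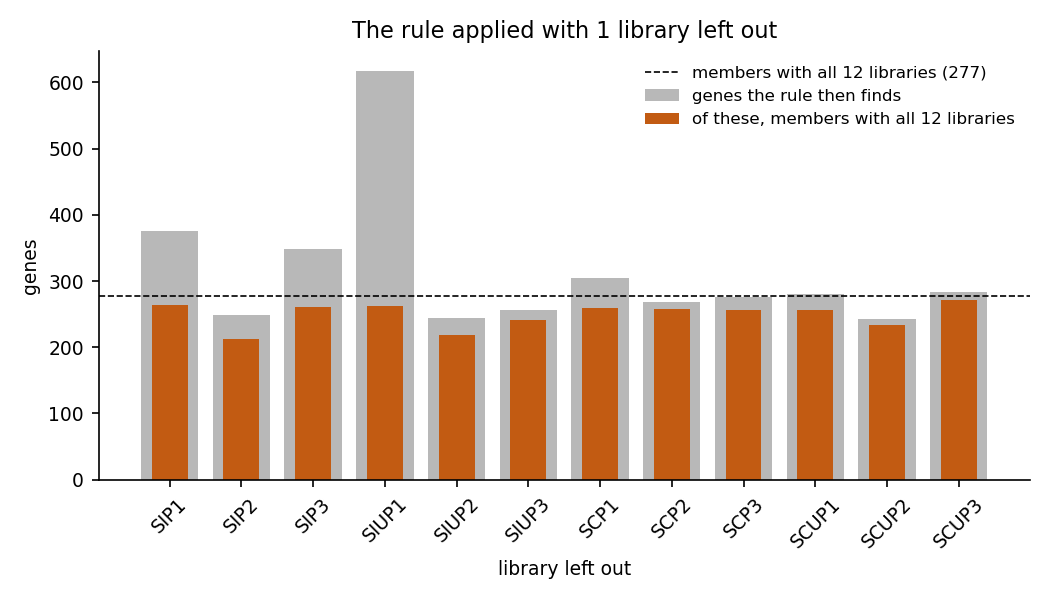
Number of genes that meet the rule when the library on the horizontal axis is left out (grey bars) and how many of them are among the 277 members found with all 12 libraries (orange bars); the dashed line is at 277. Without SIUP1 617 genes meet the rule, against 243 to 375 without any other library, while 212 to 271 of the members are found each time.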

How the data were processed

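Styles of 2 species, in 4 groups of 3 libraries, were analysed from the deposited RPKM table. Per the submitters' processing notes and the methods, the authors trimmed the reads with Trimmomatic 0.32, aligned them with TopHat2 to the tomato genome, counted them per gene and deposited RPKM. The genome build is not given in the sources. The table lists 34,725 genes, of which 7 hold error codes and were left out. The columns with the authors' own fold changes and p-values, and their read quality table, were not used. Whole reads were recovered for 26,562 genes, 100.0% of those above 0 in at least 2 libraries, within a tolerance of 1e-05.

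Groups and replicate numbers come from the sample titles. Members, lists and tests were chosen with earlier results of these data known. Values were fitted as log2(RPKM + 0.5), over genes that reached 1 RPKM in 3 or more libraries of the fit, with limma 3.58.1 in R 4.3.3 (empirical Bayes with trend), per species and as an interaction over 12 libraries, and adjusted by the Benjamini-Hochberg method. The p-values reflect the spread between the 3 libraries of a group, which the study describes as biological replicates without saying whether they came from separate plants. The fits were tested on simulated data. Named were the 10 members with the largest SI response, the 10 highest in SIP, those among the paper's named genes, the 5 with the largest difference between the responses, up to 4 in each annotated class with at least 3 members, and those at the thresholds. Others are said to be named after their values were seen, as are the members of the ratio to LAT52, the further pectin and pollen genes and the neighbours. Sequence motifs and the other fixed markers of pollen, stigma and style were not analysed, as no annotation used here covers these gene IDs. Alternatives were other pseudocounts, filters and scalings, no trend, a replicate block, voom on the recovered reads, all 12 libraries in 1 fit, other limits of the rule and each library left out. Figures were drawn with matplotlib 3.10.9.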

Additional observations from a re-analysis of the deposited data

Results flagged for a closer look

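By the interaction term of limma, the response to self-pollination was called higher in SI than in SC for 7 members. Of all 20,277 genes tested, 0.252% were called higher. The rule had already asked for a response in SI and none in SC, so these differences are not independent of it. On the log2 scale, (SIP - SIUP) - (SCP - SCUP) was 2.25 for Solyc01g079270, 2.16 for Solyc07g041230, 1.97 for Solyc02g064980, 1.96 for Solyc06g051920, 1.33 for Solyc06g065690, 1.13 for Solyc12g009220 (JAZ1) and 1.06 for Solyc09g056360. Solyc02g064980 kept its ratio to LAT52 in SC and the other 6 did not. Under 21 alternatives Solyc02g064980 passed in 20, Solyc06g051920 in 19 and Solyc07g041230 in 14. Solyc01g079270 and Solyc06g065690 passed in 11 each, Solyc09g056360 in 8 and JAZ1 in 6. Without SCUP3 no member was called.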

How the results depend on the processing

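Other pseudocounts, floors, scalings and SC limits gave 205 to 398 members, with the 277 members all kept only without a floor, with an SC limit of 1 and without demanding separation, which gave 436. With 1 library left out the members numbered 243 to 617, the highest without SIUP1, and 212 to 271 of the 277 were kept. The members called in SI (48) numbered 34 to 60 under the other pseudocounts, filters, scalings and fits, and 8 to 255 with a library left out. Those called in the interaction (7) numbered 3 by voom and 0 to 38 with a library left out, with 0 without SCUP3 and 38 without SIUP1. Those called in SC (0) numbered 0 to 1, with 1 without SCP1. With a replicate block, 13 members were called in SI, 3 in the interaction and 0 in SC. Shares of all genes called are not set beside these counts, and whether the members moved apart from all genes was not tested. Whether the numbers pair the samples is not settled by the values. Same-numbered libraries deviated together with correlations of -0.20 to 0.15 in SI and -0.06 to 0.35 in SC. Libraries with different numbers had correlations of -0.30 to 0.34 in SI and -0.37 to 0.34 in SC. With 3 libraries per group these correlations cannot decide it. Without demanding separation, the genes whose left-out SC library stayed within the limit numbered 372 to 430, against 233 to 278 with it. More genes were chosen without it, and as shares of those chosen these were 86.8% to 97.9%, against 84.9% to 97.9%. Of the members called in SI, those among the 216 numbered 1 to 208 with a library left out and those among the 61 numbered 7 to 47. The SI response of the 43 named members kept its direction under all 10 of their alternatives. For the pseudocounts and the left-out libraries the rule fixes that direction, since every SIP library lies above every SIUP library. The size of the response could fall below the limit of 1. The lowest response of a named member ranged from 0.797 without SIP3 to 1.06 with upper-quartile scaling. The causes were not tested.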
